A study of Mus musculus with 12 samples.

Results

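Gene expression was compared between 3 libraries of Hepa1-6 samples given interferon alpha together with an antibody against PD-1 (the combination) and 3 libraries of untreated Hepa1-6 samples, out of 12 libraries in the series. Hepa1-6 is a mouse hepatoma cell line, and the labels give liver as the tissue, a murine HCC (hepatocellular carcinoma) source, and mIFNalpha with anti-PD-1 antibody as the treatment. The labels give neither dose nor duration, and do not say whether the cells were taken from tumours or from culture. The other 6 libraries, 3 given interferon alpha alone (IFNa) and 3 given the antibody alone (antiPD1), carry the same cell line label and contribute to the estimate of spread. Every gene with at least 10 counts in at least 3 of the 6 combination and untreated libraries was tested, which kept 13988 of 21878 genes. At this limit, 100 genes whose highest counts in 3 libraries just reached 10 were kept, with summed counts of 33 to 115, and 104 genes that just missed it with a count of 9 were left out, with summed counts of 33 to 195. Of the genes left out, 4323 had 0 counts in all 6 libraries.

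Type I interferon binds the receptor Ifnar1/Ifnar2, and the kinases Jak1 and Tyk2 then phosphorylate STAT factors such as Stat2, which together with Irf9 binds interferon-stimulated response elements (ISREs) in the promoters of antiviral genes. PD-1, encoded by Pdcd1, is an inhibitory receptor of activated T cells, and its ligand PD-L1, encoded by Cd274, is made by tumour and myeloid cells and is itself inducible by interferon gamma. Antibodies that block PD-1 release T cells from that inhibition, and activated T cells secrete interferon gamma, which raises antigen presentation and the chemokines Cxcl9 and Cxcl10.

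Combination libraries held 34.5, 32.7 and 34.0 M (mega) counted reads, against 32.5, 31.3 and 32.6 M in untreated libraries, and 15678 to 16377 genes had at least 1 count. At adjusted p under 0.05 (edgeR's quasi-likelihood test, Benjamini-Hochberg over all genes tested), 1088 genes rose in combination libraries, which is 7.78% of the genes tested, and 710 fell, which is 5.08%. The rises were larger than the falls: the median log2 fold change was 1.70 among the genes that rose and -0.54 among those that fell, and 911 rises but 114 falls were at least 2-fold. All 3 combination values lay above all 3 untreated values for 3476 genes (24.8%) and below them for 3479 genes (24.9%). Of 216 genes that passed the count filter through combination libraries alone, 91 rose. Of 33 that passed it through untreated libraries alone, 16 fell. These genes were kept for being high in 1 group, so their calls are not read as support. On the deposited FPKM, limma on log2(FPKM + 1) gave a more uneven split, with 773 rises and 198 falls. Log2 fold changes are given as combination over untreated. The ± values are approximate standard errors, the absolute log2 fold change divided by the square root of the test's F statistic. Levels are CPM (counts per M after TMM scaling).

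**Figure D1:**
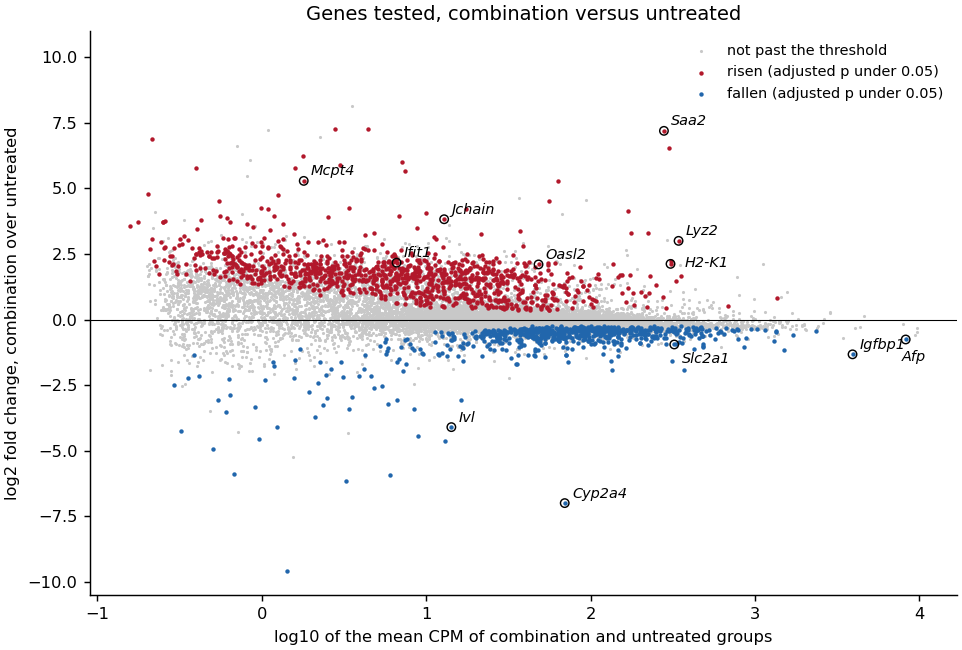
Each point is 1 of the 13988 genes tested, with the log10 of its mean CPM over the combination and untreated groups on the x axis and its log2 fold change (combination over untreated) on the y axis. Red points (1088) rose and blue points (710) fell at adjusted p under 0.05. Grey points did not pass, and 12 genes described in the text are circled. Of the red points 911 are at least 2-fold, against 114 of the blue ones. Saa2 stands at 7.20 and Cyp2a4 at -7.00.

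These counts moved with single libraries. On the first principal component of the 6 libraries, which carried 71.9% of the variance, the combination libraries stood at 64.4, 37.7 and 49.5 and the untreated libraries at -72.0, -66.8 and -12.8, so untreated library 3 was the one nearest to the combination group. Without combination library 1, 2 or 3, 130, 133 or 22 genes rose and 89, 81 or 11 fell. Without untreated library 1, 2 or 3, 44, 43 or 1554 rose and 45, 73 or 1003 fell. In every one of these 6 fits, 22 of the 1088 rises and 11 of the 710 falls kept their call.

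Summed levels of some marker lists differed between the groups without overlap, and those of others did not. Summed levels of 4 Y-linked genes were 52.1, 30.5 and 39.0 CPM in combination libraries, against 10.4, 9.93 and 21.8 CPM in untreated libraries, and 1 of the 4, Uty, rose. Summed levels of 14 pan-leukocyte genes were 1353, 1266 and 1361 CPM in combination libraries, against 804, 854 and 812 CPM in untreated libraries. Summed levels of 31 adult hepatocyte enzymes were 4857, 1832 and 2304 CPM in combination libraries, against 1322, 1495 and 2047 CPM in untreated libraries, and those of 16 pancreatic acinar genes were 122, 78.8 and 19.6 CPM against 35.0, 88.9 and 58.2 CPM. Y-linked and leukocyte sums did not overlap between the groups, whereas hepatocyte and acinar sums did. In a fit with the Y-linked level of each library as a covariate 1 gene rose and 0 fell. That gene was Wnt6, a Wnt ligand, named because it was the single call, with 32.96, 47.9 and 34.9 CPM in combination libraries, against 19.9, 15.4 and 10.1 CPM in untreated libraries (1.35 ± 0.31 without the covariate, adjusted p = 0.0254). That level did not overlap between the 2 groups, so it and the treatment cannot be told apart here. In bulk RNA, fewer cells of a type and less RNA per cell cannot be told apart either.

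**Figure D2:**
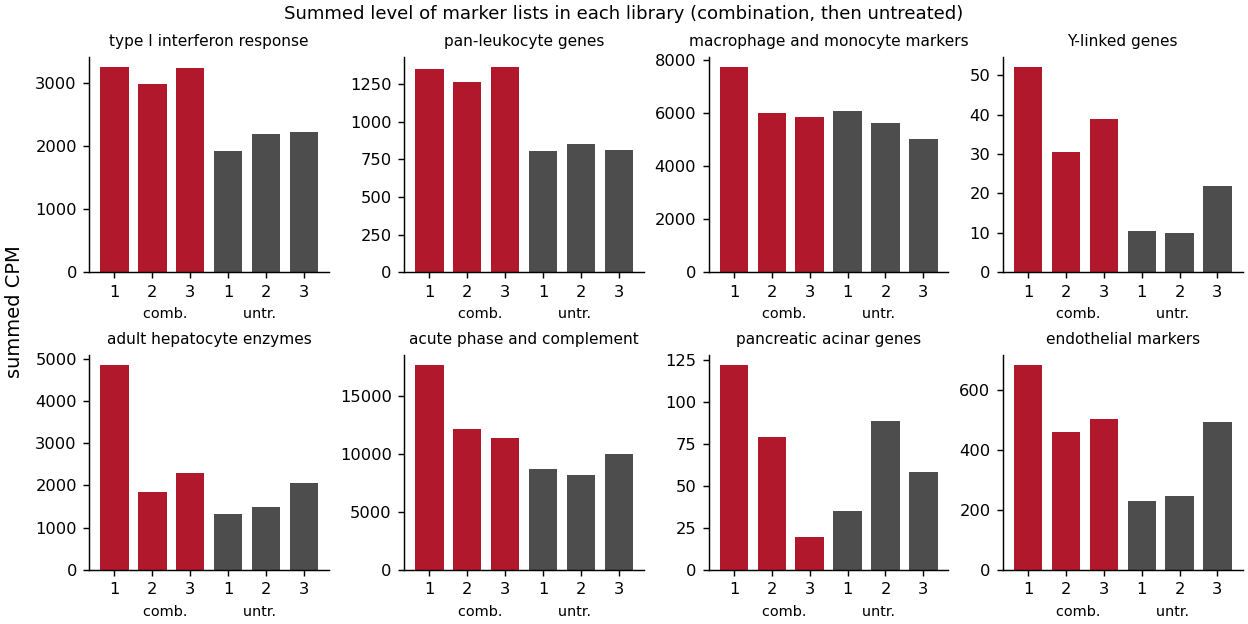
Bars give the summed CPM of each marker list (y axis, starting at 0) in combination libraries 1, 2 and 3 (red) and untreated libraries 1, 2 and 3 (grey). The Y-linked sums are 30.5 to 52.1 CPM in combination and 9.93 to 21.8 CPM in untreated libraries, while combination library 1 stands above all others for adult hepatocyte enzymes at 4857 CPM.

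Genes of the type I interferon response were higher in combination libraries. Of 59 tested members of this list, 43 rose (72.9%, against 7.78% of all genes tested) and 0 fell. Their median log2 fold change was 1.10, against -0.015 over all genes tested. Members whose groups did not overlap numbered 50, all higher in combination libraries, where 24.8% of all genes tested were higher in this way. Slfn8, a Schlafen family gene (GRCm38, chr11:83002158-83020810, minus strand), had 15.7, 12.1 and 13.7 CPM in combination libraries, against 1.62, 1.82 and 3.6 CPM in untreated libraries (log2 fold change 2.56 ± 0.34, adjusted p = 0.00771). Ifit1, which binds foreign RNA lacking a 2'-O-methylated cap, had 12.98, 9.13 and 10.3 CPM in combination libraries, against 1.62, 2.13 and 3.45 CPM in untreated libraries (2.17 ± 0.3, adjusted p = 0.00811). The lowest combination value was more than double the highest untreated value for both genes.

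Isg15, a ubiquitin-like protein conjugated to other proteins during the response, had 21.3, 16.6 and 17.5 CPM in combination libraries, against 5.08, 8.04 and 7.48 CPM in untreated libraries (1.43 ± 0.24, adjusted p = 0.0134). Oasl2, an oligoadenylate synthetase-like protein, had 77.8, 67.5 and 89.7 CPM, against 11.4, 18.2 and 25.1 CPM (2.1 ± 0.28, adjusted p = 0.00771). Ddx58, the RNA sensor RIG-I, had 56.5, 54.9 and 55.7 CPM, against 23.8, 32.8 and 36.4 CPM (0.85 ± 0.14, adjusted p = 0.0121). The sensor's untreated values were spread more widely than its combination values, and the groups did not overlap. Its relative Ifih1, the RNA sensor MDA5, also rose (1.1 ± 0.28, adjusted p = 0.0315), as did the RNA editing enzyme Adar (0.49 ± 0.13, adjusted p = 0.0339). Rsad2, the antiviral enzyme viperin, had 20.1, 13.6 and 14.7 CPM in combination libraries, against 2.94, 4.86 and 10.01 CPM in untreated libraries, and did not pass (1.44 ± 0.54, adjusted p = 0.0972). Without untreated library 3 its log2 fold change was 2.05 and it passed (adjusted p = 0.0353).

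The list's count depended on single libraries. It was 19, 22 or 5 rises without combination library 1, 2 or 3 and 13, 11 or 42 rises without untreated library 1, 2 or 3, while the median stayed between 0.95 and 1.32. Slfn8, Slfn1, Slfn2, Ifit1 and Oasl2 rose in every one of these fits. Slfn1 had 10.7, 11.4 and 11.2 CPM in combination libraries, against 2.52, 2.296 and 4.45 CPM in untreated libraries, and Slfn2 had 52.3, 49.9 and 53.95 CPM, against 13, 14.3 and 21.1 CPM. Both genes varied little within the combination group. With the Y-linked covariate 0 members passed and the median was 0.68. Members of the Slfn, Ifit, Oas, Phf11 and Trim30 families have near-identical copies, so the split of reads among them is uncertain.

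The promoters of several of these genes hold the ISRE core that complexes holding Stat2 and Irf9 bind. It was searched as GAAANNGAAA on both strands, overlapping matches included, in 300 bases around each RefSeq start (GRCm38.p6). Of 27025 genes with such a window, 1079 (3.99%) held it. Windows were found for 47 of the 59 list members and for 840 of the 1088 risen genes, too few for a share over either set to be read, so that check is void. The 6 stretches shown are those of the risen list members with the smallest p among members that hold a match before the start. They are printed on the gene's strand, 5′ to 3′, to let the elements be compared, and capitals mark the matches. Slfn8 is at chr11:83020811-83020898 (minus strand), Ifit1 at chr19:34640764-34640853 (plus), Trim30a at chr7:104465194-104465269 (minus), Phf11b at chr14:59341331-59341420 (minus), Isg15 at chr4:156200835-156200924 (minus) and Ifit1bl1 at chr19:34602023-34602112 (minus).
Slfn8: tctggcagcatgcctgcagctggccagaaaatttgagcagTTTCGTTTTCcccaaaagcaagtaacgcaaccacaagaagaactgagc
Ifit1: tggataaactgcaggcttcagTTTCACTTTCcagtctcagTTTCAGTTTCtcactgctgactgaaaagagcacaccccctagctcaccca
Trim30a: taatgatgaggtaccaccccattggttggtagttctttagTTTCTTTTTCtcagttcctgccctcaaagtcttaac
Phf11b: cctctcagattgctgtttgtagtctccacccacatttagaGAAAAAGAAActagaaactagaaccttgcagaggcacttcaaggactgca
Isg15: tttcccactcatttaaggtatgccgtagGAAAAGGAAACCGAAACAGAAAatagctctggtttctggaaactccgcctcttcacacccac
Ifit1bl1: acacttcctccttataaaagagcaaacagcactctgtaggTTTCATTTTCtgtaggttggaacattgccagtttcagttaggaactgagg
Ifit1 held 2 separate matches, and Isg15 held 3 matches that overlap in 1 run. In the other 4 genes 1 match lay in the stretch shown. Trim30a, a RING finger protein, had 38.3, 36.4 and 39.3 CPM in combination libraries, against 6.34, 10.1 and 15.04 CPM in untreated libraries (1.85 ± 0.28, adjusted p = 0.0103). Phf11b, a PHD finger gene, had 9.37, 9.77 and 12.6 CPM, against 1.88, 1.59 and 3.295 CPM (2.23 ± 0.37, adjusted p = 0.0127). Ifit1bl1, an Ifit1-like gene, had 2.62, 2.09 and 2.18 CPM, against 0.582, 0.203 and 0.427 CPM (2.5 ± 0.43, adjusted p = 0.0137). None of the 3 genes overlapped between groups. A match in a promoter is a description of its letters and not evidence of binding in these samples.

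Of 24 tested members of the interferon signalling list 4 rose (16.7%, against 7.78% of all genes tested) and 0 fell, with a median log2 fold change of 0.24. Stat2 had 113, 100.2 and 122 CPM in combination libraries, against 50.8, 73.5 and 79.5 CPM in untreated libraries (0.72 ± 0.17, adjusted p = 0.0273). The rises also included Irf5, a transcription factor of myeloid and B cells (1.59 ± 0.29, adjusted p = 0.0156), and Socs1, a feedback inhibitor of Jak kinases (1.58 ± 0.32, adjusted p = 0.018). The receptor subunit Ifnar1 had 82.8, 88.2 and 81.8 CPM in combination libraries, against 82.3, 92.2 and 83.1 CPM in untreated libraries (-0.03 ± 0.08, adjusted p = 0.851). Jak1 had 171, 171 and 170.3 CPM, against 141, 166 and 178 CPM (0.08 ± 0.15, adjusted p = 0.756). The ranges of both genes overlapped between groups. Irf7, which amplifies type I interferon production, had 63.2, 43.8 and 51.1 CPM, against 14.5, 30.5 and 28.3 CPM, without overlap, and did not pass (1.11 ± 0.37, adjusted p = 0.0703). Irf9 (0.39 ± 0.15, adjusted p = 0.106) and Irf1, a factor induced by interferon gamma (0.95 ± 0.29, adjusted p = 0.0561), did not pass either. The 4 rises became 1, 1 and 0 without combination library 1, 2 and 3, and 0, 0 and 5 without untreated library 1, 2 and 3.

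Genes that interferon gamma induces most strongly in mice, the guanylate-binding proteins and immunity-related GTPases that act on intracellular pathogens, rose as a group. Of 19 tested members 15 rose (78.9%, against 7.78% of all genes tested) and 0 fell, with a median log2 fold change of 1.66. Gbp4 had 86.05, 81.5 and 129.7 CPM in combination libraries, against 13, 21.1 and 33.2 CPM in untreated libraries (2.14 ± 0.38, adjusted p = 0.0151). Gbp5, which takes part in inflammasome activation, had 43.04, 49.4 and 79.4 CPM, against 8.54, 6.72 and 15.7 CPM (2.47 ± 0.49, adjusted p = 0.0176). In both, combination library 3 was the highest of the 6. Irgm2 (1.28 ± 0.27, adjusted p = 0.0212) and Igtp (1.29 ± 0.33, adjusted p = 0.0335) rose too. Iigp1 had 319, 266 and 360.4 CPM in combination libraries, against 174, 171 and 241 CPM in untreated libraries, and did not pass (0.69 ± 0.27, adjusted p = 0.114). Without combination library 1, 2 or 3 the list had 3, 2 or 0 rises, and without untreated library 1, 2 or 3 it had 0, 1 or 16. Gbp genes share near-identical copies, so values of single members are uncertain.

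**Figure D3:**
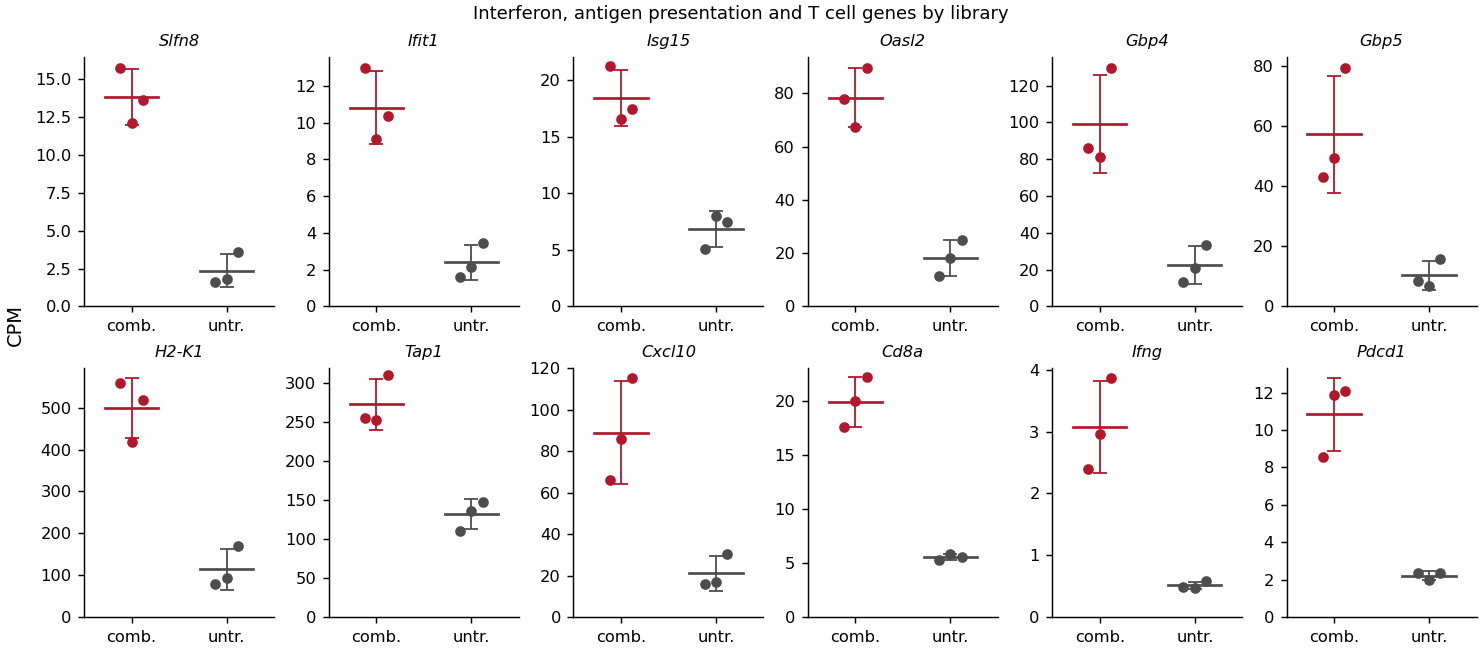
Points are the CPM values (y axis, starting at 0) of each combination library (red, left) and each untreated library (grey, right) for 12 genes, with bars at the group mean and error bars of 1 SD (n = 3). The groups do not overlap for any of the 12, and untreated library 3 is the highest untreated value for Slfn8, Ifit1, Oasl2, Gbp4 and Gbp5.

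Antigen presentation genes rose in both classes. For MHC class I and peptide loading, 11 of 21 tested members rose (52.4%, against 7.78% of all genes tested) and 0 fell. Their median log2 fold change was 0.99. H2-K1, a classical class I heavy chain, had 559, 419 and 517 CPM in combination libraries, against 79.9, 92.8 and 170.5 CPM in untreated libraries (2.12 ± 0.51, adjusted p = 0.0279). Tap1, one chain of the transporter that carries peptides into the endoplasmic reticulum, had 255, 252 and 309 CPM, against 110.3, 136 and 147 CPM (1.05 ± 0.3, adjusted p = 0.0442). Its partner Tap2 (1.49 ± 0.31, adjusted p = 0.0205), the class I transactivator Nlrc5 (1.2 ± 0.24, adjusted p = 0.0176) and H2-D1 (0.81 ± 0.21, adjusted p = 0.0361) rose as well. B2m, the invariant light chain, had 1352, 1100.2 and 1297 CPM in combination libraries, against 689, 747 and 717 CPM in untreated libraries, without overlap, and did not pass (0.8 ± 0.32, adjusted p = 0.113). Of the 5 immunoproteasome genes, which cut peptides for class I, Psmb8 (1.2 ± 0.32), Psmb9 (1.28 ± 0.36) and Psme2 (0.69 ± 0.2) rose, at adjusted p of 0.0361, 0.0428 and 0.0496.

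For MHC class II, 5 of 12 tested members rose (41.7%, against 7.78% of all genes tested). All 12 had combination values above the untreated ones, against 24.8% of all genes tested. Their median log2 fold change was 1.89. Ciita, the class II transactivator, had 56.7, 62.7 and 73.7 CPM in combination libraries, against 10.4, 10.6 and 22.6 CPM in untreated libraries (2.15 ± 0.54, adjusted p = 0.0321). H2-DMa, which exchanges peptides on class II, had 68.5, 73.5 and 82.6 CPM, against 21.7, 26.2 and 28.8 CPM (1.55 ± 0.36, adjusted p = 0.0254). The more abundant H2-Aa (2.08 ± 0.69, adjusted p = 0.0684), H2-Ab1 (2.15 ± 0.7, adjusted p = 0.0668) and invariant chain Cd74 (2.11 ± 0.65, adjusted p = 0.0568) did not pass, although their groups did not overlap. For class I the count was 1, 2 or 0 without combination library 1, 2 or 3 and 0, 0 or 11 without untreated library 1, 2 or 3. For class II it was 0 without any of these but untreated library 3, where it was 6, and for the immunoproteasome it was 0 except without that library, where it was 1. Pan-leukocyte genes, summed above, were higher in the same libraries, with 10 of 14 risen, and their part in these rises was not tested.

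T cell recruiting chemokines and their receptors rose. Of 9 tested members 8 rose (88.9%, against 7.78% of all genes tested) and 0 fell, with a median log2 fold change of 1.94. Cxcl10, a ligand of Cxcr3, had 65.9, 85.8 and 115 CPM in combination libraries, against 15.7, 16.8 and 30.5 CPM in untreated libraries (2.08 ± 0.42, adjusted p = 0.01898). Cxcl9, another ligand of that receptor, had 183, 185 and 301 CPM, against 41.5, 37.6 and 74.8 CPM (2.12 ± 0.6, adjusted p = 0.0444). Both ligands were highest in combination library 3. The receptors Cxcr3 (2.19 ± 0.56, adjusted p = 0.0329) and Cxcr6 (2.64 ± 0.66, adjusted p = 0.0321), carried by effector and memory T cells, rose, as did the chemokines Ccl3 (1.54 ± 0.29, adjusted p = 0.017) and Ccl4 (1.68 ± 0.34, adjusted p = 0.0188). Ccl5 had 27.4, 25.1 and 36.4 CPM in combination libraries, against 10.2, 7.26 and 6.68 CPM in untreated libraries, and did not pass (1.88 ± 0.72, adjusted p = 0.104). Without combination library 1, 2 or 3 the list had 2, 1 or 0 rises, and without untreated library 1, 2 or 3 it had 0, 0 or 7.

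T cell transcripts were present in both groups and higher in combination libraries. All 23 T cell markers had a positive log2 fold change, with a median of 1.79. Of the 23, 6 rose (26.1%, against 7.78% of all genes tested). Cd8a, a chain of the CD8 co-receptor, had 17.6, 20.02 and 22.3 CPM in combination libraries, against 5.302, 5.84 and 5.52 CPM in untreated libraries (1.85 ± 0.44, adjusted p = 0.0276). Cd3g, a chain of the T cell receptor complex, had 13.8, 14.6 and 15.8 CPM, against 3.49, 3.005 and 3.204 CPM (2.19 ± 0.55, adjusted p = 0.0321). The untreated values of both genes were nearly equal. Cd4 had 13.97, 18.98 and 21.2 CPM in combination libraries, against 5.53, 3.71 and 4.09 CPM in untreated libraries, without overlap, and did not pass (2.02 ± 0.73, adjusted p = 0.0894). Of 7 tested regulatory T cell markers, 3 rose, among them the transcription factors Foxp3 (2.44 ± 0.69, adjusted p = 0.0436) and Ikzf2 (2.12 ± 0.62, adjusted p = 0.0467); 1 of the 7 had passed the count filter through combination libraries alone. Of 7 tested NK cell markers, the 2 that rose, Il2rb (1.62 ± 0.42, adjusted p = 0.0345) and Klrk1 (1.54 ± 0.44, adjusted p = 0.0434), are also expressed by activated CD8+ T cells.

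Among 15 cytotoxic effector genes 5 rose (33.3%, against 7.78% of all genes tested) and 0 fell. Ifng, which encodes interferon gamma, had 2.399, 2.96 and 3.87 CPM in combination libraries, against 0.485, 0.473 and 0.5797 CPM in untreated libraries (2.58 ± 0.52, adjusted p = 0.0188). Tbx21, the transcription factor T-bet, had 2.57, 2.73 and 3.37 CPM, against 0.453, 0.304 and 0.5797 CPM (2.68 ± 0.71, adjusted p = 0.0357). Fasl, a ligand that triggers cell death, rose by a similar amount (2.21 ± 0.53, adjusted p = 0.0275). The granule proteases did not pass: Gzmb, granzyme B, had 6.74, 5.67 and 8.504 CPM in combination libraries, against 6.11, 7.93 and 7.87 CPM in untreated libraries (-0.07 ± 0.36, adjusted p = 0.915). Gzma, granzyme A, had 2.29, 1.48 and 1.99 CPM, against 2.101, 1.38 and 1.92 CPM (0.09 ± 0.37, adjusted p = 0.888). The groups overlapped for both granzymes. The pore-forming Prf1 had 8.61, 9.53 and 10.5 CPM in combination libraries, against 1.88, 4.49 and 5.49 CPM in untreated libraries, and did not pass (1.27 ± 0.41, adjusted p = 0.06201).

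Genes of a list of checkpoints and costimulation rose in 7 of 23 cases (30.4%, against 7.78% of all genes tested), with a median log2 fold change of 1.37. Of the 23, 1 had passed the count filter through combination libraries alone and is among the 7 rises. Pdcd1, which encodes the antibody's target PD-1 (chr1:94038305-94052553, minus strand), had 8.58, 11.9 and 12.1 CPM in combination libraries, against 2.33, 1.96 and 2.35 CPM in untreated libraries (2.29 ± 0.6, adjusted p = 0.0353). Havcr2, which encodes the inhibitory receptor TIM-3, had 14.5, 12.8 and 11.8 CPM, against 2.85, 2.73 and 5.83 CPM (1.77 ± 0.43, adjusted p = 0.0278). Neither gene overlapped between groups. Cd274, which encodes PD-L1, had 67.8, 58.3 and 94.5 CPM in combination libraries, against 20.1, 24.5 and 36.6 CPM in untreated libraries, and lay just outside the threshold (1.44 ± 0.43, adjusted p = 0.05001). Lag3, another inhibitory receptor, had 21.5, 24.99 and 29.7 CPM, against 8.24, 9.12 and 6.87 CPM (1.65 ± 0.67, adjusted p = 0.1201). T cell markers had 4 rises without untreated library 3 and 0 without each of the other 5 libraries. Cytotoxic effectors had 1 rise without combination library 1, 6 without untreated library 3 and 0 without each of the others. Checkpoint and costimulation genes had the same counts. Regulatory T cell and NK markers had 3 and 2 rises without untreated library 3 and 0 otherwise.

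**Figure D4:**
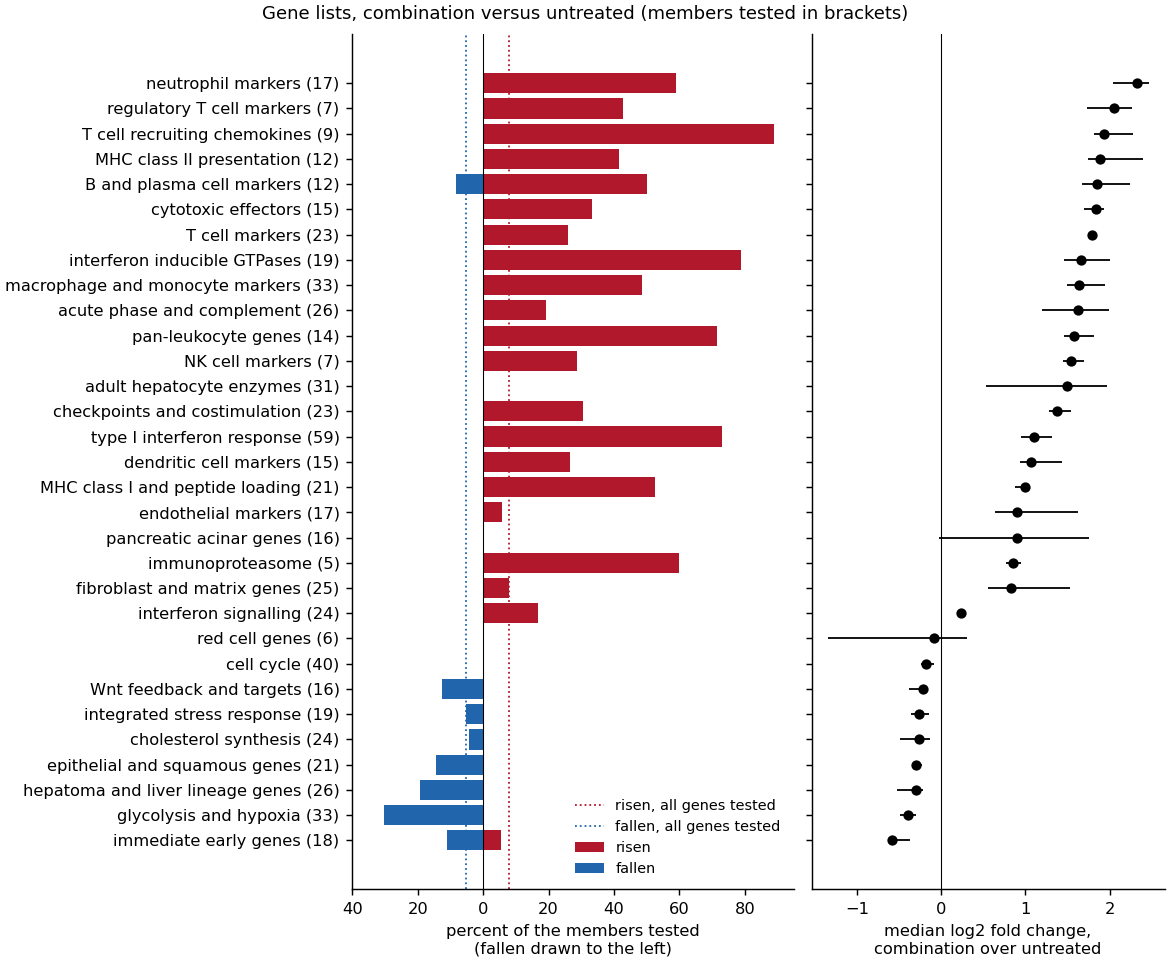
For each gene list with at least 5 members tested, mast cell markers left out, the left panel gives the percent of tested members that rose (red, to the right) and fell (blue, to the left), with dotted lines at 7.78% and 5.08% for all genes tested. The right panel gives the median log2 fold change (combination over untreated) with a line from the lowest to the highest median when each of the 6 libraries was left out; type I interferon, GTPase, chemokine and pan-leukocyte lists have the highest shares risen, and glycolysis and hypoxia the highest share fallen.

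The plasma cell transcript Jchain was among the rises with the smallest p-values. It encodes the chain that links IgA and IgM polymers, lies at chr5:88519809-88527891 (minus strand) and had 27.7, 22.3 and 22.1 CPM in combination libraries, against 1.81, 1.11 and 2.14 CPM in untreated libraries (3.83 ± 0.41, adjusted p = 0.00685). Every combination value was at least 10 times the highest untreated value, and the call held without each of the 6 libraries. Of 12 tested B and plasma cell markers 6 rose and 1 fell. Of the 12, 3 had passed the count filter through combination libraries alone. All 3 are among the 6 rises, so this count is not read as a result. Pou2af1, a B cell coactivator, had 1.19, 1.31 and 0.663 CPM in combination libraries, against 0.129, 0.135 and 0.305 CPM in untreated libraries (2.44 ± 0.44, adjusted p = 0.0155). Cd79b, a chain of the B cell receptor complex, had 1.41, 0.901 and 1.46 CPM, against 0.291, 0.304 and 0.366 CPM (1.96 ± 0.39, adjusted p = 0.0176). These 2 genes had low levels in both groups. The member that fell, Sdc1, is a surface proteoglycan of plasma cells and also of hepatocytes and other epithelial cells. It had 175, 157 and 163 CPM in combination libraries, against 249, 248 and 225 CPM in untreated libraries (-0.55 ± 0.1, adjusted p = 0.0156). The list's rises numbered 1, 2 or 1 without combination library 1, 2 or 3 and 2, 1 or 7 without untreated library 1, 2 or 3.

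Macrophage and monocyte markers rose in 16 of 33 cases (48.5%, against 7.78% of all genes tested), with a median log2 fold change of 1.63. Fcgr1, the high-affinity IgG receptor, had 31.2, 22.6 and 22.01 CPM in combination libraries, against 6.08, 4.86 and 9.92 CPM in untreated libraries (1.86 ± 0.34, adjusted p = 0.0155). Msr1, a scavenger receptor, had 70.1, 62.5 and 65.8 CPM, against 20.1, 21.8 and 36.9 CPM (1.33 ± 0.26, adjusted p = 0.0176). Nos2, the inducible nitric oxide synthase, had 13.01, 14.6 and 32.6 CPM, against 2.101, 1.62 and 2.99 CPM (3.16 ± 0.86, adjusted p = 0.0393). Combination library 3 was more than double the other 2 for Nos2. The lysozyme Lyz2 had 712, 463 and 655 CPM in combination libraries, against 64.2, 32.4 and 132 CPM in untreated libraries (3.0 ± 0.76, adjusted p = 0.0331), and its log2 fold change was 3.66 without untreated library 3. The count was 1 without combination library 2, 20 without untreated library 3 and 0 without each of the others. The sum of the list was 7726, 5997 and 5858 CPM in combination libraries, against 6064, 5630 and 5016 CPM in untreated libraries, and these overlapping sums are mostly Apoe, a lipid carrier that hepatic cells also make.

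Of 17 neutrophil markers 10 rose (58.8%, against 7.78% of all genes tested) and 0 fell, with a median log2 fold change of 2.32. Of the 17, 1 had passed the count filter through combination libraries alone and is among the 10 rises. S100a8, a subunit of the calprotectin complex, had 34.9, 50.5 and 25.7 CPM in combination libraries, against 5.21, 5.94 and 9.21 CPM in untreated libraries (2.45 ± 0.46, adjusted p = 0.0164). Its partner S100a9 had 57.6, 79.6 and 38.5 CPM, against 10.6, 12.7 and 15.8 CPM (2.17 ± 0.4, adjusted p = 0.0158). Combination library 2 was the highest for both. Mmp9, a gelatinase of neutrophil granules and macrophages, had 23.1, 48.5 and 33.9 CPM, against 5.59, 3.92 and 10.2 CPM (2.42 ± 0.47, adjusted p = 0.0176). Ltf, the granule protein lactoferrin, also rose (2.21 ± 0.44, adjusted p = 0.0176). Ly6g, the surface antigen that defines mouse neutrophils, had 0.3104, 0.668 and 0.497 CPM in combination libraries, against 0.841, 0.338 and 0.763 CPM in untreated libraries (-0.4 ± 0.89, adjusted p = 0.792), and its groups overlapped. The list had 4, 1 or 0 rises without combination library 1, 2 or 3 and 0, 0 or 10 without untreated library 1, 2 or 3.

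Of 15 dendritic cell markers 4 rose (26.7%, against 7.78% of all genes tested). Among them were Clec9a, a receptor of cross-presenting dendritic cells (2.64 ± 0.72, adjusted p = 0.04002), and Batf3, a factor these cells need (1.9 ± 0.45, adjusted p = 0.0278). This list had 5 rises without untreated library 3 and 0 without each of the others. Mast cell proteases were nearly confined to combination libraries within this comparison. Tpsb2, a tryptase, had raw counts of 84, 167 and 120 in combination libraries, against 1, 3 and 0 in untreated libraries. Mcpt4, a chymase, had raw counts of 90, 184 and 96, against 2, 4 and 2, and Cpa3, a carboxypeptidase, had 72, 132 and 126, against 0, 2 and 3. Combination library 2 had the highest count of all 3. Since 7 of the 8 mast cell markers tested passed the count filter through combination libraries alone, their number of calls is not read as a result. Mcpt genes have near-identical copies and single members are uncertain.

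Beyond the lists, 5 of the genes with the smallest p-values were rises that held without each of the 6 libraries. Ccnd2, cyclin D2, had 35.4, 40.9 and 43.9 CPM in combination libraries, against 8.99, 8.44 and 15.3 CPM in untreated libraries (1.88 ± 0.22, adjusted p = 0.00685). Cish, a cytokine-induced suppressor of STAT5 signalling, had 8.1, 8.84 and 9.802 CPM, against 1.81, 2.03 and 2.47 CPM (2.08 ± 0.25, adjusted p = 0.00685). Enpp2, the secreted enzyme autotaxin that makes lysophosphatidic acid, had 71.4, 82.5 and 67.6 CPM, against 24.4, 12.6 and 18.5 CPM (2.0 ± 0.24, adjusted p = 0.00685). In each of these genes the lowest combination value was well above the highest untreated value. Mndal, an interferon-inducible gene of the Ifi200 family, had 45.2, 39.4 and 52.2 CPM, against 14.3, 15.6 and 19.5 CPM (1.47 ± 0.18, adjusted p = 0.00685). Olfml3, a secreted olfactomedin-like protein, had 58.6, 62.5 and 73.8 CPM, against 28.7, 20.6 and 29.7 CPM (1.3 ± 0.16, adjusted p = 0.00685). Tnfsf10, which encodes the death ligand TRAIL and is induced by interferon, also held without each library, with 17.4, 16.4 and 18.7 CPM in combination libraries, against 2.17, 2.23 and 4.58 CPM in untreated libraries (2.54 ± 0.35, adjusted p = 0.00771).

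Secreted liver proteins of the acute phase were among the rises with the largest fold change. Of 26 tested acute phase and complement genes 5 rose (19.2%, against 7.78% of all genes tested) and 0 fell. The rises were Saa1, Saa2, Orm2, Saa3 (4.23 ± 0.89, adjusted p = 0.0206) and Orm1 (3.31 ± 0.9, adjusted p = 0.0391). Saa2, a serum amyloid A protein, had 857, 398 and 411 CPM in combination libraries, against 1.81, 7.43 and 2.14 CPM in untreated libraries (7.2 ± 1.01, adjusted p = 0.008602). Saa1 had 915, 455 and 415 CPM, against 3.23, 11.8 and 4.21 CPM (6.54 ± 0.92, adjusted p = 0.00878). Combination library 1 was about double the other 2 for both, and untreated library 2 was the highest untreated value. Without untreated library 2 their log2 fold changes were 8.13 and 7.32. Orm2, the acid glycoprotein orosomucoid 2, had 148, 109 and 66.4 CPM in combination libraries, against 1.16, 6.41 and 6.56 CPM in untreated libraries (4.51 ± 0.72, adjusted p = 0.0118). Saa1, Saa2 and Orm2 kept their calls without each of the 6 libraries. Saa1 and Saa2 are near-identical and may share reads. The list's median of 1.63 was 1.20 without combination library 1 and -0.02 with the Y-linked covariate.

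Several other liver genes with large rises had their highest values in combination library 1. Serpina1e, an alpha-1 antitrypsin of mouse liver, had 575, 123 and 260.3 CPM in combination libraries, against 21.6, 16.8 and 16.3 CPM in untreated libraries (4.13 ± 0.82, adjusted p = 0.0177), and its log2 fold change was 3.40 without combination library 1. Mup3, a major urinary protein, had 193, 37.3 and 139 CPM, against 1.39, 0.979 and 7.08 CPM (5.27 ± 1.52, adjusted p = 0.04595), and its log2 fold change was 6.69 without untreated library 3. Elovl3, a fatty acid elongase, had raw counts of 539, 37 and 367 in combination libraries, against 2, 2 and 1 in untreated libraries, and Slco1a1, an organic anion transporter, had 378, 29 and 183, against 3, 0 and 0. Elovl3, Slco1a1 and Mup3 are known as genes that adult male mice express more than females in the liver. The 31 adult hepatocyte enzymes had 0 calls in either direction. Their median log2 fold change was 1.49, and it was 0.53 without combination library 1 and -1.20 with the Y-linked covariate.

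The genes with the largest falls included liver enzymes as well. Cyp2a4, a steroid hydroxylase of the cytochrome P450 family, had 1.58, 0.639 and 0.994 CPM in combination libraries, against 256, 119.7 and 39.3 CPM in untreated libraries (-7.0 ± 0.77, adjusted p = 0.00685). Cyp3a16, another cytochrome P450, had 1.38, 1.02 and 0.635 CPM, against 48.2, 15.1 and 11.5 CPM (-4.62 ± 0.59, adjusted p = 0.007603). Untreated library 1 was the highest for both, and without it the log2 fold changes were -6.21 and -3.71. Sult2a1, a sulfotransferase, had raw counts of 6, 3 and 0 in combination libraries, against 426, 107 and 62 in untreated libraries. Akr1c18, which inactivates progesterone, had 0.621, 0.698 and 0.414 CPM, against 9.67, 5.402 and 3.57 CPM (-3.42 ± 0.52, adjusted p = 0.0105). None of the 4 overlapped between groups. The calls of Cyp2a4 and Cyp3a16 held without each of the 6 libraries. Cyp2a4 and Sult2a1 are known as genes that female mice express more than males in the liver. Y-linked sums were higher in the same combination libraries. Once the fit was adjusted for the Y-linked genes, 0 genes fell, so none of the 4 kept its call. Y-linked levels did not overlap between the groups, so that fit cannot tell their part in these changes apart from the treatment. Cyp2a4 and Cyp3a16 have near-identical copies and are uncertain.

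The falls with the largest fold change or the smallest p-value included 3 genes of epithelia, Ivl, Prss22 and Pkp1. Ivl, involucrin of the cornified envelope, had 1.86, 1.69 and 1.13 CPM in combination libraries, against 44.6, 20.5 and 15.6 CPM in untreated libraries (-4.11 ± 0.53, adjusted p = 0.007603). Prss22, a secreted serine protease of epithelia, had 1.35, 1.104 and 1.82 CPM, against 15.7, 13.2 and 6.96 CPM (-3.06 ± 0.35, adjusted p = 0.00685). Pkp1, the desmosomal protein plakophilin 1, had 8.97, 8.25 and 8.504 CPM, against 18.6, 26 and 22.7 CPM (-1.39 ± 0.14, adjusted p = 0.00685). All 3 calls held without each of the 6 libraries. Of 21 tested members of the epithelial and squamous list, which holds neither Ivl nor Prss22, 3 fell (14.3%, against 5.08% of all genes tested), Pkp1, Krt23 (-1.38 ± 0.24, adjusted p = 0.0141) and Fer1l6 (-3.06 ± 0.64, adjusted p = 0.0205), and 0 rose, with a median log2 fold change of -0.29. Fer1l6 had a log2 fold change of -2.42 without untreated library 1. The list had 1 fall without combination library 1, combination library 3 or untreated library 1, 2 without combination library 2 or untreated library 2, and 4 falls and 1 rise without untreated library 3.

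Smaller falls that held without each of the 6 libraries included Arg2, Igfbp1 and Cdhr2. Arg2, the mitochondrial arginase, had 23.96, 23.02 and 20.5 CPM in combination libraries, against 40.3, 42.7 and 41.4 CPM in untreated libraries (-0.88 ± 0.11, adjusted p = 0.007603). Igfbp1, a secreted binding protein for insulin-like growth factors (chr11:7197782-7202546, plus strand), had 2349, 2346 and 2012 CPM, against 6929, 5695 and 4209.7 CPM (-1.33 ± 0.17, adjusted p = 0.00771). Cdhr2, a protocadherin of the intestinal and hepatic brush border, had 16.9, 15.5 and 15.02 CPM, against 40.4, 37.1 and 29.2 CPM (-1.17 ± 0.14, adjusted p = 0.00685). Of the 3, Arg2 varied least within the untreated group.

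Some hepatoma and liver lineage genes fell: 5 of 26 tested members fell (19.2%, against 5.08% of all genes tested) and 0 rose. The median log2 fold change was -0.30. Afp, alpha-fetoprotein, the fetal serum protein that marks hepatoma, had 5767, 6917 and 5709 CPM in combination libraries, against 10835, 10734 and 9599.6 CPM in untreated libraries (-0.76 ± 0.14, adjusted p = 0.0159). Hnf4a, a nuclear receptor that maintains hepatic identity, had 209.9, 212 and 176 CPM, against 415, 389 and 325 CPM (-0.92 ± 0.18, adjusted p = 0.0176). Prox1 (-0.82 ± 0.15, adjusted p = 0.0156) and the keratin Krt18 (-0.58 ± 0.1, adjusted p = 0.0134) also fell. None of these 4 genes overlapped between groups. Alb, albumin, had 11118, 7725 and 6873 CPM in combination libraries, against 11759.9, 10218 and 10539 CPM in untreated libraries, and its groups overlapped (-0.34 ± 0.25, adjusted p = 0.376). The list had 1, 3 or 0 falls without combination library 1, 2 or 3 and 0, 0 or 6 without untreated library 1, 2 or 3. CPM are shares of each library's total, and pan-leukocyte sums were higher in the same libraries, so the part of a smaller tumour cell share in these falls was not tested.

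Glycolysis and hypoxia genes formed the largest listed group of falls. Of 33 tested members 10 fell and 0 rose, with a median log2 fold change of -0.39, against 5.08% fallen and a median of -0.015 over all genes tested. Slc2a1, the glucose transporter GLUT1 (chr4:119108711-119137983, plus strand), had 204, 206 and 250.3 CPM in combination libraries, against 499, 476 and 303 CPM in untreated libraries (-0.95 ± 0.18, adjusted p = 0.01597). Ndrg1, a gene induced by hypoxia, had 234, 288 and 282 CPM, against 709.8, 675 and 368 CPM (-1.12 ± 0.22, adjusted p = 0.0174). Vegfa, the angiogenic growth factor, had 359.9, 347 and 433 CPM, against 723, 503 and 539 CPM (-0.63 ± 0.14, adjusted p = 0.02397). The groups did not overlap, and untreated library 3 was the lowest untreated value for Slc2a1 and Ndrg1.

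Among the enzymes of glycolysis, Ldha, lactate dehydrogenase A, had 1934, 1985 and 2031 CPM in combination libraries, against 2856, 3004 and 2258 CPM in untreated libraries (-0.45 ± 0.11, adjusted p = 0.0325). Pfkm, a phosphofructokinase (-0.6 ± 0.11, adjusted p = 0.0168), and Gpi1, glucose phosphate isomerase (-0.54 ± 0.15, adjusted p = 0.0423), fell by similar amounts. Pgk1, phosphoglycerate kinase, had 654, 673 and 727 CPM in combination libraries, against 1143, 1075 and 658 CPM in untreated libraries (-0.49 ± 0.18, adjusted p = 0.0879), and its groups overlapped. Car9, a carbonic anhydrase that responds to hypoxia, had 32.5, 32.96 and 38.3 CPM, against 76.3, 74.3 and 39.5 CPM (-0.87 ± 0.23, adjusted p = 0.0377). Bnip3, a mitophagy receptor, passed although untreated library 3 lay within the combination range: it had 242, 222 and 272 CPM in combination libraries, against 559, 509.9 and 266 CPM in untreated libraries (-0.86 ± 0.23, adjusted p = 0.0367). The oxygen sensor Egln3 (-0.68 ± 0.16, adjusted p = 0.0276) and the factor Epas1, HIF-2 alpha (-0.67 ± 0.14, adjusted p = 0.0192), fell, while Hif1a did not pass (-0.09 ± 0.15, adjusted p = 0.705). The list had 0 falls without any 1 of 5 of the libraries and 18 without untreated library 3, and with the Y-linked covariate the median was -0.21 with 0 falls.

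**Figure D5:**
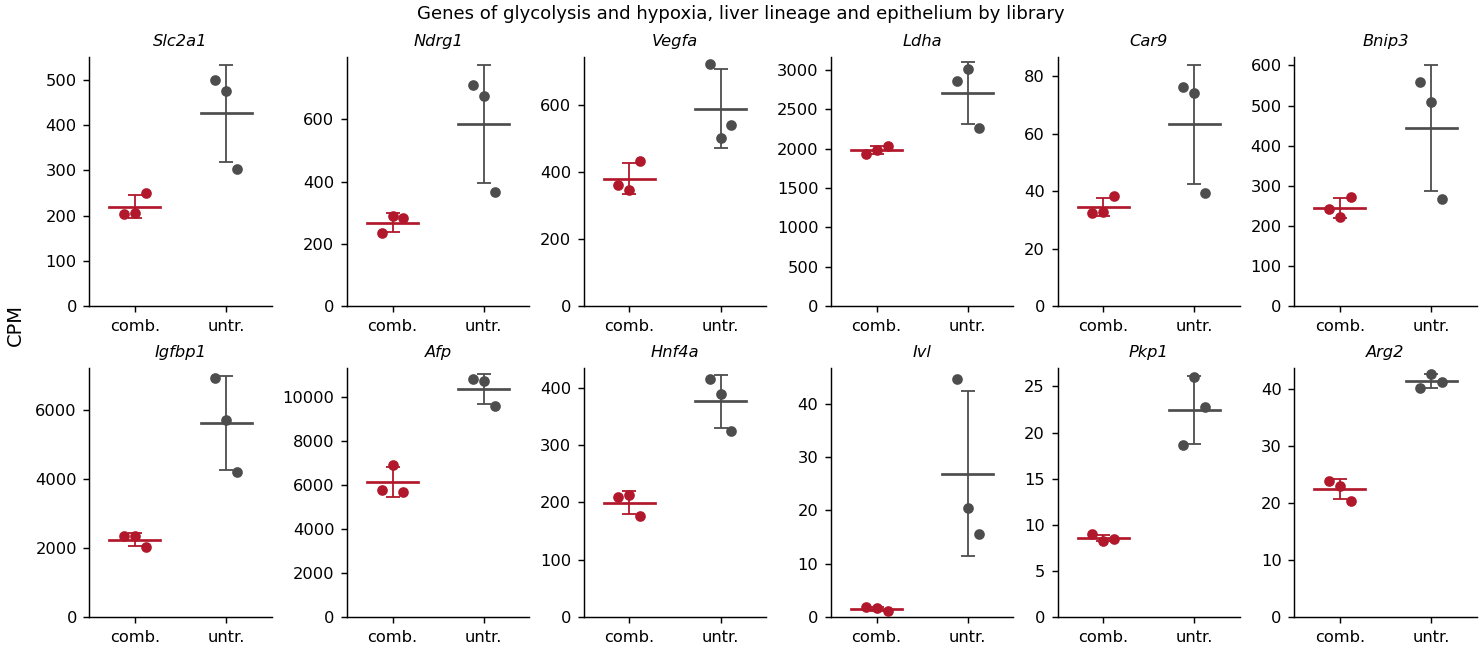
Points are the CPM values (y axis, starting at 0) of each combination library (red, left) and each untreated library (grey, right) for 12 genes that fell, with bars at the group mean and error bars of 1 SD (n = 3). For Slc2a1, Ndrg1, Car9 and Bnip3 untreated library 3 lies closest to the combination values, and for Arg2 the 3 untreated values lie between 40.3 and 42.7 CPM, far above the combination values.

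Other lists had few calls, at shares that for some were near those over all genes tested (7.78% risen and 5.08% fallen). Of 16 Wnt feedback and target genes 2 fell, Myc (-0.83 ± 0.23, adjusted p = 0.0383) and Tbx3 (-0.56 ± 0.16, adjusted p = 0.0423). Among 18 immediate early genes Egr1 had 65.7, 51.6 and 50.3 CPM in combination libraries, against 269, 75.1 and 294 CPM in untreated libraries (-1.93 ± 0.48, adjusted p = 0.0315). Egr1 varied widely within the untreated group. Ier2 fell too (-0.66 ± 0.13, adjusted p = 0.0176) and Egr3 rose (2.1 ± 0.61, adjusted p = 0.0474). Of 19 integrated stress response genes 1 fell (5.26%), the chaperone Hspa5 (-0.49 ± 0.13, adjusted p = 0.0353). The 40 cell cycle genes had 0 calls (edgeR, all 12 libraries) and a median log2 fold change of -0.18. Endothelial markers had 1 rise of 17 (5.88%), the scavenger receptor Stab1 (1.55 ± 0.44, adjusted p = 0.04503), and fibroblast and matrix genes had 2 of 25 (8%), the gelatinase Mmp2 (2.1 ± 0.53, adjusted p = 0.0325) and its inhibitor Timp2 (0.48 ± 0.14, adjusted p = 0.0434). Fibroblast rises numbered 19 without untreated library 3 and 0 without each of the other 5 libraries. The median log2 fold change of these 25 genes was 0.84, yet their summed level was lower in combination libraries. It was 11060, 10850 and 10346 CPM there, against 12788, 13584 and 12947 CPM in untreated libraries, without overlap.

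The single treatments were set against the combination in the same fit. Against antiPD1 alone, 0 of 13988 genes passed (0%; 674 at unadjusted p under 0.05, and 10 higher and 11 lower by DESeq2), and the smallest adjusted p was 0.666. The smallest p-values belonged to Arg2, which had 23.96, 23.02 and 20.5 CPM in combination libraries, against 32.5, 39.4 and 39.6 CPM in antiPD1 libraries (-0.72 ± 0.11, adjusted p = 0.666), and to Pllp, a myelin proteolipid, which had 32.8, 37.99 and 30.2 CPM, against 21.4, 20.03 and 17.6 CPM (0.78 ± 0.13, adjusted p = 0.825). Neither gene overlapped between these groups. The interferon genes Ifit1 and Isg15 were higher in combination libraries without passing: Ifit1 had 12.98, 9.13 and 10.3 CPM, against 5.36, 4.96 and 5.33 CPM in antiPD1 libraries (1.05 ± 0.29, adjusted p = 0.982), and Isg15 had 21.3, 16.6 and 17.5 CPM, against 9.02, 11.2 and 14.3 CPM (0.68 ± 0.24, adjusted p = 0.982). The median log2 fold change over antiPD1 was 0.33 for the type I interferon list and 0.22 for the GTPases. It was -0.60 for T cell markers, -0.42 for cytotoxic effectors and -0.32 for T cell recruiting chemokines. For MHC class II it was -0.31, and for class I -0.11. In antiPD1 libraries Y-linked sums were 39.2, 26.2 and 95.0 CPM, and pan-leukocyte sums 1032, 1252 and 2653 CPM. Both overlapped the combination sums. A difference that misses the threshold with 3 libraries a group does not show that the treatments act alike.

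Against IFNa alone, 137 genes (0.979%) passed, 49 higher and 88 lower in combination libraries. Y-linked sums were 52.1, 30.5 and 39.0 CPM in combination libraries, against 27.3, 15.4 and 18.1 CPM in IFNa libraries. Pan-leukocyte sums were 1353, 1266 and 1361 CPM, against 606, 977 and 947 CPM. Neither sum overlapped between these groups, so neither can be told apart from the treatment here. With the Y-linked covariate 10 genes were higher and 8 lower. Jchain had 27.7, 22.3 and 22.1 CPM in combination libraries, against 1.11, 2.06 and 2.59 CPM in IFNa libraries (3.64 ± 0.41, adjusted p = 0.01096). Enpp2 had 71.4, 82.5 and 67.6 CPM, against 14.2, 16.7 and 16.7 CPM (2.22 ± 0.25, adjusted p = 0.01096). Cx3cl1, the chemokine fractalkine, had 36.8, 39.5 and 38.2 CPM, against 12.01, 16.05 and 13.2 CPM (1.47 ± 0.17, adjusted p = 0.0115). For all 3 genes the groups did not overlap. Itgb7, a lymphocyte integrin chain (1.41 ± 0.19, adjusted p = 0.01202), Mndal (1.22 ± 0.17, adjusted p = 0.0159), Ccnd2 (1.28 ± 0.21, adjusted p = 0.0282) and Tnfsf10 (1.93 ± 0.34, adjusted p = 0.0311) were higher too. Of the 59 type I interferon genes 3 passed, all higher: Parp14, an ADP-ribosyltransferase (1.12 ± 0.19, adjusted p = 0.0285), Samd9l (1.0 ± 0.18, adjusted p = 0.0361) and Oasl2 (1.34 ± 0.27, adjusted p = 0.0488).

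Falls against IFNa alone included Arg2, with 23.96, 23.02 and 20.5 CPM in combination libraries, against 42.6, 45.4 and 51.5 CPM in IFNa libraries (-1.05 ± 0.11, adjusted p = 0.01096). Prss22 had 1.35, 1.104 and 1.82 CPM, against 13.96, 8.48 and 9.504 CPM (-2.9 ± 0.35, adjusted p = 0.0115), and Ivl had 1.86, 1.69 and 1.13 CPM, against 21.4, 8.39 and 11.5 CPM (-3.14 ± 0.51, adjusted p = 0.0251). Cyp2a4 had 1.58, 0.639 and 0.994 CPM, against 26.4, 51.5 and 72.02 CPM (-5.54 ± 0.73, adjusted p = 0.01202). These 4 genes did not overlap between the combination and IFNa groups. Areg, the growth factor amphiregulin, was lower as well (-1.63 ± 0.25, adjusted p = 0.0214). Leaving out combination library 1, 2 or 3 gave 6, 0 or 2 rises and 2, 0 or 1 falls. Leaving out IFNa library 1, 2 or 3 gave 23, 17 or 7 rises and 78, 49 or 16 falls. Without these IFNa libraries, 15, 14 or 7 of the rises and 52, 42 or 16 of the falls were among the 137 calls. Of the 137 calls 0 held in all 6 fits.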

How the data were processed

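RNA was sequenced from 12 samples labelled Hepa1-6, 3 in each of 4 groups given by the labels: IFNa with antiPD1 (the combination), IFNa, antiPD1 and untreated. The submitters' processing notes name HISAT2 2.1.0, Cufflinks, HTSeq and the mm10 build, without the role of each. Neither annotation nor strand setting is given in the sources used here. In the files, the deposited count table holds 1 whole-number count per gene and library. The deposited FPKM table holds values per kilobase and M (mega) fragments for the same libraries, and was used only in alternatives. No column belonged to another sample.

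Genes with at least 10 counts in at least 3 of the 6 combination and untreated libraries were kept (13988 of 21878). Testing used edgeR 4.0.16 in R 4.3.3 (TMM scaling, robust quasi-likelihood F test) on all 12 libraries with 1 mean per group. Benjamini-Hochberg adjustment covered the 13988 genes, and the threshold was 0.05. A count of 3 was 0.0915 to 0.101 CPM in untreated libraries. Genes with at most 3 counts in each untreated library are given as raw counts without a fold. Totals were 31.3 to 38.5 M, and errors and floors cover counting and the spread between these libraries only. The labels do not say that replicates came from separate animals or cultures, so p-values measure the spread between these samples, which may be technical. No 2 libraries of a group agreed within sampling noise, so all 12 were kept as separate samples.

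Alternatives were RLE size factors, no filter, filterByExpr, only the groups compared, DESeq2 1.42.0, a replicate block, limma 3.58.1 on log2(FPKM + 1) and log2(FPKM + 0.1) with a minimum of 1 FPKM, log2(FPKM + 1) also without a filter, leaving out each library, leaving out IFNa library 1 and antiPD1 library 3 together, and the mean log2 CPM of 4 Y-linked genes as a covariate. On simulated data for the combination and untreated comparison (13988 genes, 200 changed), the procedure recovered 54% of the changes of 1 on the log2 scale and 91% of those of 2, with 12 false calls in all. The changed genes were picked among those with higher mean counts, and each gene was drawn independently. Shifts shared by many genes of a library were not simulated, so these figures may not hold for the real libraries.

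The comparison, its gene lists and its alternatives were chosen with earlier results of these data known, so list counts and medians are descriptions. Named genes are at most 12 in each direction, ranked by fold change among called genes whose groups did not overlap and whose higher group averaged at least 5 CPM; the 10 rises and 10 falls with the smallest p; members of the gene lists; and the same sets for both other comparisons. From these sets examples were taken, and some members are not reported here by name. Of the tested genes 13557 (96.9%) matched GENCODE M21 by symbol, the source of gene coordinates (GRCm38); promoter windows are RefSeq's (GRCm38.p6). Not analysed here were Mx1, Mx2, Cxcl11, Ighm and T cell receptor constant genes.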

Additional observations from a re-analysis of the deposited data

How the results depend on the processing

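Against untreated, RLE size factors, no filter and filterByExpr kept both counts within 1.5 times of 1088 rises and 710 falls. Rises and falls numbered 1989 and 1825 with only the groups compared, 1763 and 1245 by DESeq2, 2225 and 1902 without IFNa library 1 and antiPD1 library 3, and 1 and 0 with the Y-linked covariate. Falls were 198, 201 and 197 by limma on log2(FPKM + 1), on log2(FPKM + 0.1), and on log2(FPKM + 1) without a filter. Leaving out 1 library gave 22 to 1554 rises and 11 to 1003 falls. Against IFNa, in the same order, rises and falls numbered 765 and 363, 832 and 830, 633 and 679, and 10 and 8; limma gave 124 and 47, 81 and 43, and 143 and 40; leaving out 1 library gave 0 to 23 rises and 0 to 78 falls. Against antiPD1, DESeq2 gave 10 rises and 11 falls, and every other alternative gave 0. The causes of these shifts were not tested.

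Deviations of same-numbered combination and untreated libraries from their group means correlated at -0.317, 0.220 and -0.133. With 3 libraries a group, these values cannot decide whether replicate numbers pair the samples. A replicate block gave 1428 rises and 746 falls against untreated and 359 and 188 against IFNa.

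With the Y-linked covariate, list medians changed sign for endothelial markers (-0.37), fibroblast and matrix genes (-0.17), acute phase genes (-0.0159) and Wnt targets (0.14), and, among lists without a call, for adult hepatocyte enzymes (-1.20), adipocyte genes (-0.545) and cell cycle genes (0.0878). Among genes that did not pass, Ifnar1 changed sign with that covariate (0.0651), by limma (0.0879, 0.0954 and 0.0879) and when 1 library was left out (-0.0609 to 0.0269). Jak1 did so with the covariate (-0.316) and when 1 library was left out (-0.00822 to 0.154), and Rsad2 with the covariate (-0.000264). Leaving out 1 library changed the sign of Gzmb (-0.224 to 0.0617) and Gzma (-0.0678 to 0.244). Hif1a changed sign by limma (0.0365, 0.0372 and 0.0365). At 3 libraries a group, genes near a count of 10 carry wide errors, and differences there were not detectable rather than absent.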
